A study of Homo sapiens with 2 samples.

Results

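ATP13A5, TMEM72, SPTLC3, SLC17A8 and DYNLT5 are 5 of the 62704 genes counted in human cerebral organoids by split-seq, a method that gives each cell or nucleus its barcode through rounds of pooling and splitting in plates. They were selected on their measured counts in these same libraries, so their shared presence is a description and not a test. Barcodes were kept with over 500 genes, over 1000 transcripts and at most 20% of transcripts from mitochondrial genes, which left 20178 cells and 14228 nuclei. All organoids were made from the H9 human embryonic stem cell line. The cells came from control organoids (CO) at days 45, 55 and 70, from dissociated and reaggregated organoids (DISS, dissociated at day 45) at days 48, 55 and 70, and from agarose-constrained organoids (CONS, freed of Matrigel at day 13) at day 55. The study describes the nuclei as a control experiment at day 45, from whole organoids and from organoids dissociated that day, while the label of that library reads Control/Dissociated/Embed. A barcode's organoid, treatment and day are not given in the metadata analysed here. Each library counted as 1 sample, no condition or day was compared, and the organoids loaded into each first-round well (48 wells for cells, 12 for nuclei) are not given either.

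The choroid plexus is the secretory epithelium of the brain ventricles. It makes cerebrospinal fluid, releases transthyretin (TTR) in large amounts, carries motile cilia, and arises at the dorsal midline beside the cortical hem, a signalling centre that produces WNT and BMP ligands. ATP13A5 is a P5-type ATPase, a family of pumps of intracellular membranes that includes polyamine transporters. TMEM72 is a membrane-spanning protein. SPTLC3 is a catalytic subunit of serine palmitoyltransferase, the entry enzyme of sphingolipid synthesis. SLC17A8 (VGLUT3) loads glutamate into vesicles. DYNLT5 belongs to the Tctex group of dynein light chains, small subunits of the motors that run along microtubules, in the cytoplasm and in cilia.

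The 5 genes lie on 5 chromosomes. In the GENCODE annotation of GRCh38, DYNLT5 is at chr1:66752459-66779047 on the plus strand, ATP13A5 at chr3:193274789-193378820 on the minus strand, TMEM72 at chr10:44911316-44937010, SLC17A8 at chr12:100357074-100422055 and SPTLC3 at chr20:13008972-13169103, the last 3 on the plus strand. TMEM72 lies inside the span of an antisense gene, TMEM72-AS1, with which it shares 0 exonic bases, and ATP13A5 shares 193 of its 6206 exonic bases with ATP13A5-AS1. The 250 bases before the RefSeq start (GRCh38.p14) are shown for the 4 genes whose promoter was in the table used, because the 5 genes were found in the same barcodes. Capitals mark CpG pairs. The ATP13A5 promoter (chr3:193378754-193379003, minus strand) held 3 CpG pairs at 41.2% G and C, below the lower quartile of 46.4% over the 35116 human promoters of the table. TMEM72 (chr10:44911087-44911336), SLC17A8 (chr12:100356824-100357073) and DYNLT5 (chr1:66752209-66752458) held 7, 10 and 10 pairs at 61.6%, 64.4% and 61.2%, near the medians of 11 pairs and 58% over the same 250 bases of all promoters.
ATP13A5: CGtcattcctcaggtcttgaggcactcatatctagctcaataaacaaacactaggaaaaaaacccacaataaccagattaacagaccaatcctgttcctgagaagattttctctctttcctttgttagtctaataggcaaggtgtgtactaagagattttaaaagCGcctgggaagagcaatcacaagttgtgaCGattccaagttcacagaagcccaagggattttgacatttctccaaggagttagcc
TMEM72: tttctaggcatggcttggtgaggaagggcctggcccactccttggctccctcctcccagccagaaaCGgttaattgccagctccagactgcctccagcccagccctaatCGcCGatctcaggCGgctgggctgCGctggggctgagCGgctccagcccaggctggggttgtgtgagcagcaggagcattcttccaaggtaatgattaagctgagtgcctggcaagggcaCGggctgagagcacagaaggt
SLC17A8: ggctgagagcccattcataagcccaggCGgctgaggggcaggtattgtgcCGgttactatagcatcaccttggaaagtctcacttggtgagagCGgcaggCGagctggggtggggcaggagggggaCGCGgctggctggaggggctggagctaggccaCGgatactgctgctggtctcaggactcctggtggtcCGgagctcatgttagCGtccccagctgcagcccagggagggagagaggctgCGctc
DYNLT5: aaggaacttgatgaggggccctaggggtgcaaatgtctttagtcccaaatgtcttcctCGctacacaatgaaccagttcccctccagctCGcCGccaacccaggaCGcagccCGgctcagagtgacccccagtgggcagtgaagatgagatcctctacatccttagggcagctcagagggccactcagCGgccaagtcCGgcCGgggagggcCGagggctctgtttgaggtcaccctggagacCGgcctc
These windows, with the 50 bases after the start, were searched on both strands for 5 motifs. GGATTA, a homeodomain core, occurs in 6.36% of all promoters of the table. TAATTA, another homeodomain core that shares its last 4 letters with it, occurs in 4.84%. The RFX half-site GTTGCC occurs in 12.2%, the forkhead core TGTTTAC in 3.42% and the TATA box TATAAA in 11.5%. No motif was found in any of the 4 windows, which says only that these letters are not in them.

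Kept cells held a median of 2615 transcripts (interquartile range 1427 to 7224) and kept nuclei 3890 (2275 to 6191). Kept cells included sets of barcodes that shared wells. A set was defined as at least 10 kept barcodes that shared the first-round well, the second-round well and the sub-library and whose deepest barcode held at least 20 times the median depth of the others. The cells had 130 such sets, with depth ratios of 26.6 to 220 that the rule itself bounds from below. These sets held 5838 kept barcodes, 28.9% of the cells, and 16 of them held all 96 third-round wells. Keeping only the deepest barcode of each set left 14470 cells. The nuclei had 2 such sets with 23 barcodes. Separately, 6574 kept cells and 1272 kept nuclei shared all 3 wells with a kept barcode of another sub-library, and 533 well combinations occurred in both libraries. What the sets are was not tested. With 1 barcode per set, the detected shares of cells were 3.14% for ATP13A5, 3.65% for TMEM72, 5.53% for SPTLC3, 5.51% for SLC17A8, 3.08% for DYNLT5 and 52.2% for TTR, against the values of all kept cells below.

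All 5 genes were rare. In cells, ATP13A5 was detected in 501 barcodes (2.48%, 95% exact binomial interval 2.27 to 2.71%) with 954 transcripts, TMEM72 in 569 (2.82%) with 1169, SPTLC3 in 909 (4.51%) with 1737, SLC17A8 in 889 (4.41%) with 2199 and DYNLT5 in 499 (2.47%) with 993. In nuclei, ATP13A5 was detected in 167 barcodes (1.17%, 1.00 to 1.37%) with 228 transcripts, TMEM72 in 391 (2.75%) with 782, SPTLC3 in 427 (3.00%) with 1132, SLC17A8 in 293 (2.06%) with 756 and DYNLT5 in 302 (2.12%) with 728. A single transcript was all that 66.8 to 77.2% of the detecting cells and 48.9 to 75.4% of the detecting nuclei held. Intervals here and below cover counting error only. Detection followed depth: the median depth was 13170 transcripts in cells with ATP13A5 and 2537 in cells without it, and 9191 and 3854 in nuclei. With every barcode thinned to 1000 transcripts, the detected shares lay between 0.436% (DYNLT5) and 1.05% (SPTLC3) of cells and between 0.267% (ATP13A5) and 0.886% (SPTLC3) of nuclei. TTR was found in 9118 cells (45.2%) but 1228 nuclei (8.63%), and after thinning in 23.3% and 3.09%.

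For a comparison between genes, levels were taken per length. In cells, the levels in transcripts per 10000 and kilobase of exon were 0.0327 for SLC17A8, 0.0244 for TMEM72, 0.0188 for DYNLT5, 0.0129 for SPTLC3 and 0.00977 for ATP13A5. In nuclei, TMEM72 led with 0.0356, followed by DYNLT5 at 0.03003, SLC17A8 at 0.0245, SPTLC3 at 0.0184 and ATP13A5 at 0.00509. ATP13A5 was lowest in both libraries. Nuclear RNA also holds introns, which this scale leaves out, and per kilobase of whole gene the lowest was again ATP13A5 (0.000583 in cells and 0.000304 in nuclei) while TMEM72 was highest (0.00289 and 0.00422).

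Clustering without the 5 genes gave 29 clusters of cells and 23 of nuclei. The levels of the 5 genes were raised in the same kind of cluster in both libraries. Among cells, cluster 15 (464 barcodes) held a DYNLT5 level of 1.00 transcripts per 10000 (1.01 ± 0.130, mean ± SD over 8 sub-libraries of the same sample, a technical spread). Its ATP13A5 level was 0.573 (0.588 ± 0.495), its TMEM72 level 0.834 (0.823 ± 0.247), its SPTLC3 level 0.875 (0.877 ± 0.205) and its SLC17A8 level 1.67 (1.69 ± 0.613). The SD was close to the mean for ATP13A5 and smaller beside it for the other 4 genes. In the 19 clusters of cells that had no choroid plexus marker at 1.5 times the other cells or more, the pooled levels were 0.0191 for ATP13A5, 0.0125 for TMEM72, 0.0357 for SPTLC3, 0.0321 for SLC17A8 and 0.0131 for DYNLT5. Their 15657 cells still included 205 of the 501 with ATP13A5, 140 of the 569 with TMEM72 and 392 of the 909 with SPTLC3. They also included 349 of the 889 cells with SLC17A8 and 144 of the 499 with DYNLT5. Of these clusters, the deep cluster 14 (584 barcodes, median depth 25727) had at least 2 of the genes in 75 barcodes (12.8%). Cluster 18 (274 barcodes) had at least 2 of them in 18 (6.57%). Among nuclei, cluster 15 (366 barcodes) held 0.318 of ATP13A5 (0.325 ± 0.0980 over 2 sub-libraries), 1.21 of TMEM72 (1.21 ± 0.0147), 1.79 of SPTLC3 (1.80 ± 0.104), 1.28 of SLC17A8 (1.27 ± 0.116) and 1.66 of DYNLT5 (1.66 ± 0.0309). Pooled over the 18 clusters of nuclei without a raised choroid plexus marker, the level was at most 0.0156 for any of the 5 genes. Their 11971 nuclei included 41 of the 167 with ATP13A5, 31 of the 391 with TMEM72 and 81 of the 427 with SPTLC3. They also included 58 of the 293 nuclei with SLC17A8 and 26 of the 302 with DYNLT5. The highest level in a single one of these clusters was 0.0513, for SLC17A8. At least 2 of the genes were found in at most 0.510% of the barcodes of any of these clusters.

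**Figure D1:**
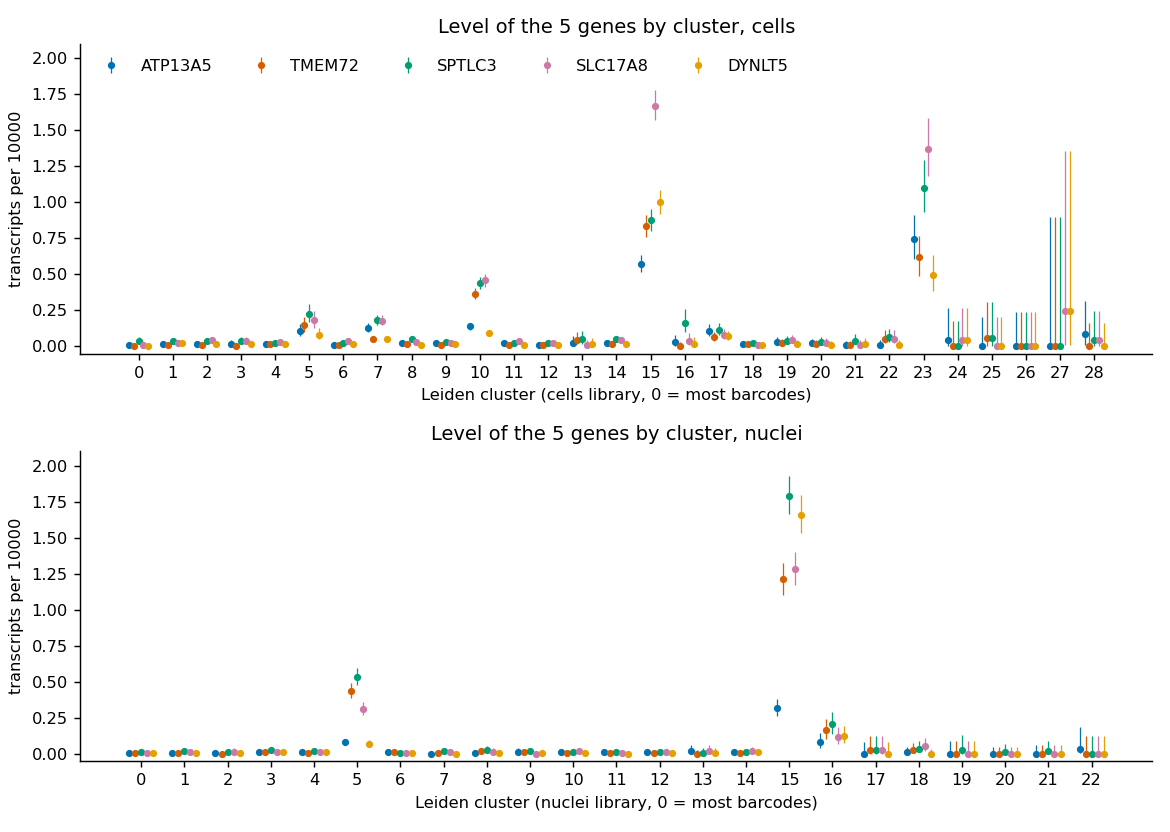
Transcripts per 10000 of each of the 5 genes (y axis) in each Leiden cluster (x axis) of cells (top) and nuclei (bottom), as points with 95% exact Poisson intervals. Levels stand out in clusters 15, 23 and 10 of the cells and in clusters 15, 5 and 16 of the nuclei, where cluster 16 holds 0.121 of DYNLT5 against 0.0697 in cluster 5, and the wide intervals of cluster 27 of the cells rest on 33 barcodes.

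Cluster 15 carried choroid plexus and cilia genes together in both libraries. Its leading genes were CFAP157, CROCC2, SPAG8, DNAAF1 and TEKT1 in cells and HOATZ, ADGB, DYNLT5, TEKT1 and LINC01973 in nuclei, most of them parts of motile cilia. All 9 choroid plexus markers and all 5 ciliated cell markers were raised at least 1.5 times in it, in cells and in nuclei. HTR2C, a serotonin receptor of the choroid plexus, was at 121 per 10000 in cells and 266 in nuclei. TTR was at 50.6 in cells and 6.32 in nuclei. Because cilia genes led the cluster while choroid plexus markers were also high, it is given no cell type name. At a Leiden resolution of 0.5, all 464 cells lay in a cluster of 1497 whose summed level of the 5 genes was 2.54, against 4.95 in cluster 15. Of its barcodes, 223 cells (48.1%) and 251 nuclei (68.6%) held at least 2 of the 5 genes. The median mitochondrial share was 8.84% in its cells, against 2.41% in cells with TTR under 0.5% of transcripts, and its part in the levels was not tested.

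A neighbouring cluster, 10 in cells (795 barcodes) and 5 in nuclei (823), had RSPO2, a WNT enhancer of the cortical hem, among its leading genes, after CYP1B1 and before DKK2, IGF1 and HSD17B2 in cells and ahead of PRTG, ADAMTS17, EYA4 and NTF3 in nuclei. It also held all 9 choroid plexus markers at 1.5 times or more, with 7 of 7 hem markers in cells and 6 of 7 in nuclei, and is likewise left unnamed. TMEM72 was at 0.364 in cells (0.361 ± 0.102) and 0.437 in nuclei, SPTLC3 at 0.439 and 0.534, SLC17A8 at 0.458 and 0.309, and ATP13A5 at 0.139 and 0.0781. DYNLT5 was at 0.0915 in these cells and 0.0697 in these nuclei. The level in cluster 15 was 10.9 times that in cluster 10 for DYNLT5 in cells and 23.8 times that in cluster 5 in nuclei, against 1.99 to 4.12 times and 2.77 to 4.15 times for the other 4 genes. The 4.12 was that of ATP13A5 in cells. Its level in cluster 15 was 0.331 without the 4 cells that held the most of it at 0.5 to 1% TTR, 2.38 times that of cluster 10. Cluster 15 held 60.6% of all DYNLT5 transcripts of the cells and cluster 10 held 8.56%, and in nuclei the shares were 88.2% and 5.63%. For TMEM72 the shares were 42.9% and 28.9% in cells and 59.8% and 32.9% in nuclei. FOXJ1, the master regulator of motile cilia, had levels of 0.533 in cluster 15 and 0.114 in cluster 10 of the cells, and 0.114 and 0.0238 in nuclei. Of the 7 hem markers, 2 were at 1.5 times or more in cluster 15 of the cells and 3 in cluster 15 of the nuclei. Cluster 5 of the cells (1045 barcodes, median depth 1416) was led by TTR and had 7 of 9 choroid plexus markers raised. It also had 5 of 7 hem, 4 of 5 Cajal-Retzius and 3 of 5 ciliated cell markers raised, and is left unnamed too. Its TTR level of 22.9 was above the 17.2 of cluster 10, while ATP13A5 was at 0.107, TMEM72 at 0.146, SPTLC3 at 0.223, SLC17A8 at 0.180 and DYNLT5 at 0.0816, and 9 of its cells (0.861%) held at least 2 of the genes.

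**Figure D2:**
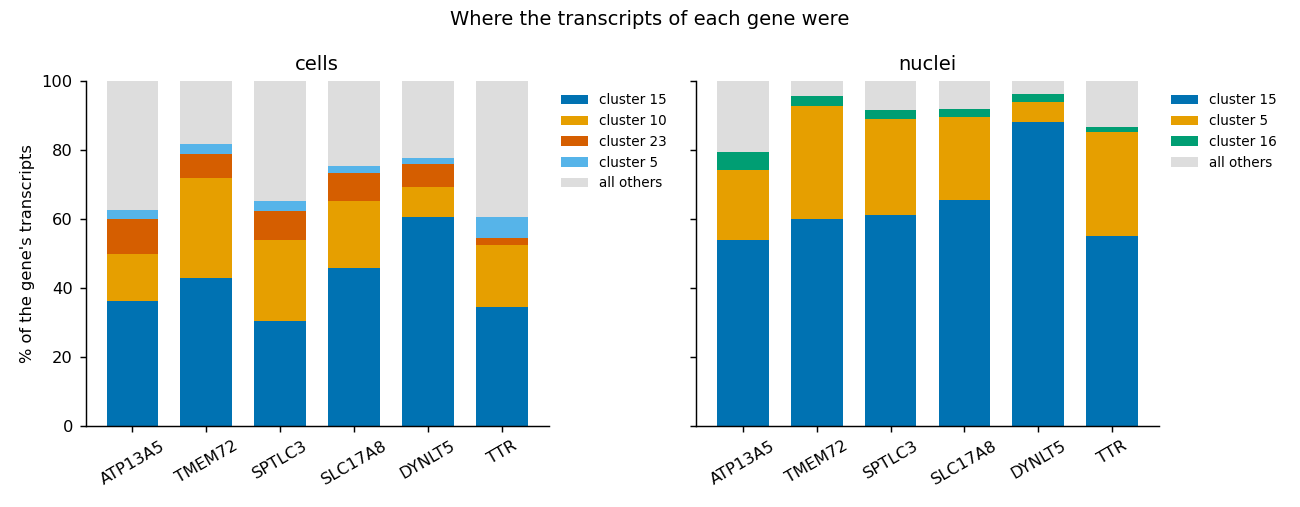
Share of each gene's transcripts (y axis, %) found in the named clusters and in all others, for cells (left) and nuclei (right), with TTR for comparison. DYNLT5 has the largest cluster 15 block of the 6 genes in both libraries, 60.6% and 88.2%, and cluster 16 of the nuclei, led by PAX3, adds 2.25 to 5.26% for the 5 genes.

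Cluster 23 of the cells (114 barcodes) rested on 1 barcode set. Its leading genes were ATP13A5, SPTLC3 and SLC17A8 themselves, followed by the co-chaperone BAG3 and the potassium channel KCNK1, although the 5 genes took no part in the clustering. The levels were 0.747 for ATP13A5, 0.619 for TMEM72, 1.10 for SPTLC3, 1.37 for SLC17A8 and 0.498 for DYNLT5, and 63 barcodes (55.3%) held at least 2 of the genes. Well A8 of the first round gave 106 of its 114 barcodes, and 98 lay in sets. The 96 barcodes with first-round well A8 and second-round well D5 in sub-library s7 were all in this cluster, 1 for each third-round well. The deepest of them held 581730 transcripts, with 49 of ATP13A5, 34 of TMEM72, 76 of SPTLC3, 96 of SLC17A8, 30 of DYNLT5 and 786 of TTR. The other 95 barcodes, of 1806 to 5876 transcripts, held 31, 31, 54, 67 and 28 in the same order. As levels per 10000, these came to 0.842 and 0.908 for ATP13A5, 0.585 and 0.908 for TMEM72, 1.31 and 1.58 for SPTLC3, 1.65 and 1.96 for SLC17A8, and 0.516 and 0.821 for DYNLT5, the deepest barcode first. The 16 barcodes of the cluster outside any set held levels of 0.578, 0.661, 0.537, 0.743 and 0.289. When the cells were clustered again with 1 barcode per set, 14 barcodes of the former cluster 23 fell into a cluster of 946 barcodes led by TTR, SULF1, LAMB1 and HTR2C. Its levels were 0.291 for ATP13A5, 0.273 for TMEM72, 0.434 for SPTLC3, 0.552 for SLC17A8 and 0.204 for DYNLT5. In that clustering the counterpart of cluster 15 (428 barcodes, 409 of them from it) held 0.582, 0.824, 0.868, 1.64 and 0.994. The clustering with 1 barcode per set held no cluster led by the 5 genes.

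In cells, few barcodes held much of ATP13A5. Its 10 highest cells held 27.6% of its transcripts, against 11.5 to 18.1% for the other 4 genes. The highest 5 held 202 of 954 (21.2%), and 4 of these came from well A8. The first, at A8, B12 and C5 in sub-library s1, held 86 ATP13A5 transcripts among 106840. The same 3 wells recurred in 5 other sub-libraries, with 18 ATP13A5 transcripts among 26479 in s5 and 1, 1, 1 and 2 among 3985, 1724, 1314 and 1209 in the others. Well A8 held 30.7% of all ATP13A5 transcripts and 12.2% of all transcripts, so that the ATP13A5 level was 0.152 per 10000 in A8 and 0.0479 in the other wells pooled. The level was higher in 3 single wells, D4 (0.428), D12 (0.181) and D5 (0.155). For the other 4 genes A8 held 12.7 to 16.6%. In nuclei, no barcode held more than 4 transcripts of ATP13A5, and the 10 highest held 15.4% of them, against 17.5% for SLC17A8 and 10.5 to 13.3% for the other 3 genes.

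Detection of 1 of the genes went with detection of the others. Among cells, 17898 held none of them, 1643 held 1, 345 held 2, 177 held 3, 72 held 4 and 43 held all 5. At least 1 gene was found in 2280 cells (11.3%, 10.9 to 11.7%), and 637 of these (27.9%, 26.1 to 29.8%) held at least 2. With 1 barcode per set the share with at least 2 was 28.1% of 2036 cells. Among nuclei, 13343 held none, 501 held 1, 179 held 2, 120 held 3, 64 held 4 and 21 held all 5, so that 885 (6.22%) held at least 1 and 384 of them (43.4%, 40.1 to 46.7%) at least 2. Thinned to 1000 transcripts, 45 of 672 cells (6.70%) and 33 of 328 nuclei (10.1%) held at least 2. Thinned to 5000 transcripts, which left 6781 cells and 5152 nuclei, the shares were 24.9% of 758 cells and 45.8% of 491 nuclei.

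In all 50 comparisons of a gene with another member or TTR, the share was higher with the gene than without it, as it was with 1 barcode per set. Each pair of members was counted in both directions, which always have the same sign, so these are not separate results. In cells with DYNLT5, TMEM72 was found in 32.7% (163 of 499) against 2.06% of cells without DYNLT5. In nuclei the same pair gave 54.3% (164 of 302) against 1.63%. With SLC17A8, TMEM72 was found in 25.8% of cells against 1.76% without, and in 46.8% of nuclei against 1.82%. ATP13A5 was found in 16.4 to 20.2% of the cells with another member and in 16.6 to 19.5% of such nuclei. Since these barcodes were also deeper, the pairs were read again after thinning to 1000 transcripts. SLC17A8 then occurred in 10.4% of the cells with TMEM72 and in 0.953% of those without, and TMEM72 in 12.3% of the nuclei with SLC17A8 and in 0.523% of those without. TMEM72 occurred in 5 of the 88 cells with DYNLT5 (5.68%, 1.87 to 12.8%) against 0.597% without, but in 1 of the 55 nuclei with DYNLT5 (1.82%, 0.0460 to 9.72%) against 0.572%, with intervals that overlapped. Of 20 comparisons of a gene with another member, each pair counted in both directions, 13 in cells and 12 in nuclei had intervals apart after thinning. All of these were higher with the gene. The other 7 and 8 had intervals that overlapped. In cells with 1 barcode per set, 12 of the 20 had intervals apart. The thinned pair of ATP13A5 and DYNLT5 was found in 1 cell and 0 nuclei, and that of ATP13A5 and SLC17A8 in 2 cells and 1 nucleus, so a difference was not detectable at this depth.

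TTR accompanied each gene. In cells it was found with 91.4% of the DYNLT5 barcodes (456 of 499), 89.8% of the TMEM72, 87.1% of the SLC17A8, 84.2% of the ATP13A5 and 82.3% of the SPTLC3 barcodes, against 43.3 to 44.2% of the cells without the gene in question. With 1 barcode per set TTR was found with 83.9 to 91.0% of the barcodes of each gene, against 50.2 to 51.2% of the cells without it. In nuclei the shares were 81.1% for DYNLT5, 81.3% for TMEM72, 74.7% for SLC17A8, 61.7% for ATP13A5 and 69.3% for SPTLC3, against 6.58% (TMEM72) to 8.001% (ATP13A5) of the nuclei without the gene. After thinning, TTR was found in 53.6% (ATP13A5) to 70.1% (SLC17A8) of the cells with each gene, against 22.8 to 23.1% without. With 1 barcode per set as well, the lowest and highest shares were 48.8% (ATP13A5) and 69.4% (SLC17A8). In thinned nuclei the shares ran from 18.4% (ATP13A5, 7 of 38, 7.74 to 34.3%) to 34.5% (DYNLT5), against 2.85 to 3.04% without. TTR was also found in 37.3% of the cells of clusters without a raised choroid plexus marker (median depth 2781) and in 3.72% of such nuclei (median depth 3857). These barcodes were shallower than those with the 5 genes, whose median depths were 11797 to 13614 in cells and 8824 to 10608 in nuclei. In barcodes of 10 to 100 transcripts TTR was at 5.36 per 10000 in the cells library, against 5.63 in kept cells, and at 0.625 in the nuclei library, against 0.614.

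**Figure D3:**
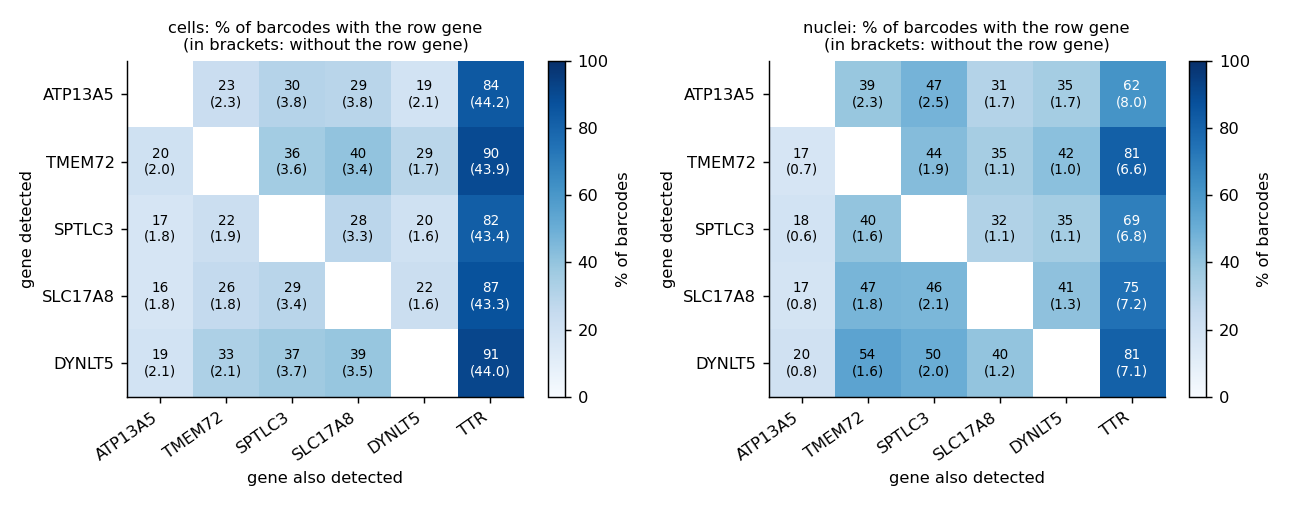
Share of barcodes with the row gene in which the column gene was also detected (colour and upper number, %), with the share among barcodes without the row gene in brackets, for cells (left) and nuclei (right), unthinned. Every upper number exceeds the bracketed one, for example 32.7% against 2.06% for TMEM72 among cells with DYNLT5.

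Pairs were also read inside cluster 15. With barcodes thinned to 5000 transcripts, 267 cells and 287 nuclei of the cluster remained. SPTLC3 was found in 60.5% of the cells with ATP13A5 (26 of 43, 44.4 to 75.02%) and in 23.7% of those without (18.2 to 29.8%). In nuclei the same pair gave 67.5% (27 of 40, 50.9 to 81.4%) and 44.9% (38.6 to 51.4%), with intervals that just overlapped. Of the 10 pairs, this was the only one in cluster 15 of the cells whose intervals did not overlap. SLC17A8 was found in 46.8% of the cells with SPTLC3 and 28.7% of those without, and in 39.9% and 24.2% of the nuclei. SLC17A8 was found in 44.1% of the nuclei with TMEM72 (34.7 to 53.9%) and in 23.9% of those without (17.8 to 30.9%), the only pair of this cluster of nuclei without overlap, and in 37.8% and 32.6% of the cells. For DYNLT5 the intervals with and without each other gene overlapped in both libraries, for example in 39.2% of the cells with SPTLC3 and 38.3% of those without, and in 42.0% and 49.7% of the nuclei. In the neighbouring clusters, thinned alike, 1 of the 10 pairs had intervals apart in cluster 10 of the cells, SPTLC3 and SLC17A8, with SLC17A8 in 26.5% of the cells with SPTLC3 (16.5 to 38.6%) and 12.3% of those without (9.32 to 15.8%). Cluster 5 of the nuclei had 2 such pairs. SLC17A8 was found in 29.3% of its nuclei with TMEM72 (19.4 to 41.0%) and 6.19% of those without (3.77 to 9.50%), and SPTLC3 in 7 of 14 with ATP13A5 (23.04 to 76.96%) and 14.9% of those without (11.5 to 19.0%).

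The levels were higher in barcodes with a larger share of TTR among their transcripts. In 11060 cells without TTR, DYNLT5 was at 0.0119 per 10000, and through the classes of increasing TTR it was at 0.0178, 0.147, 0.331, 0.673 and 0.672. SLC17A8 ran from 0.0312 to 1.71, TMEM72 from 0.0180 to 0.936 and SPTLC3 from 0.0444 to 0.881, with its highest value of 0.941 in the class from 0.5 to 1% TTR. ATP13A5 ran from 0.0213 to 0.885 in that class and was at 0.536 in the 112 cells at 1% or more. Of its 234 transcripts in that class of 277 cells, 153 came from 4 cells, and the level was 0.334 without them. At least 2 of the genes were found in 0.307% of the cells without TTR and in 30.4% of those at 1% or more, and with 1 barcode per set in 0.449% and 31.7%. In nuclei, whose TTR never exceeded 0.410%, the 13000 barcodes without TTR held at most 0.0293 per 10000 of any of the genes. In the class from 0.1 to 0.2% TTR, SPTLC3 was at 2.49 (2.15 to 2.88), DYNLT5 at 1.63 and TMEM72 at 1.61, and the 24 nuclei above 0.2% overlapped these levels in their intervals.

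**Figure D4:**
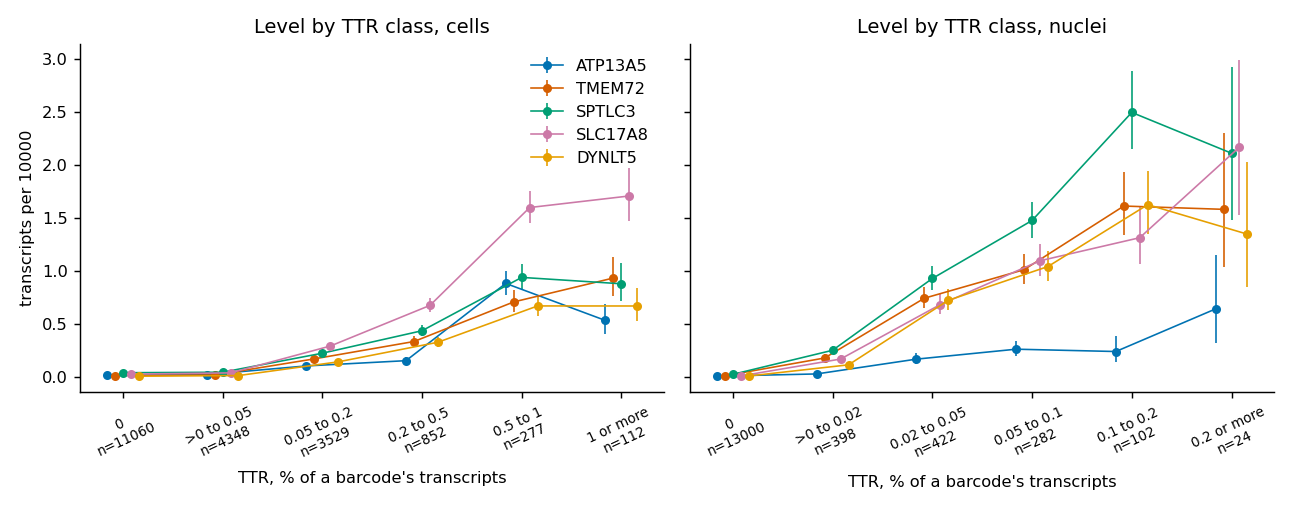
Transcripts per 10000 of each gene (y axis) in classes of barcodes by the share of TTR among their transcripts (x axis, with the number of barcodes), for cells (left) and nuclei (right), with 95% exact Poisson intervals. All 5 genes are near 0 without TTR, at 0.0444 per 10000 or less, and each is highest in 1 of the last 2 classes of its library.

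Set against all other cells, the 389 cells with TTR at 0.5% or more held all 5 genes at over 2-fold, beside 14.1% of 33544 genes with at least 20 transcripts that were at least 2-fold higher and 12.1% that were at least 2-fold lower. The cut is a point on a range, with 123 cells within 20% below it and 100 within 20% above it. Well D10 held 39.1% of the 389 cells, D11 20.8% and D12 11.8%, with 5.85%, 5.83% and 2.76% of the kept cells. Well A8 held 2.83% of the 389, with 12.9% of the kept cells. The contrast is thus partly one between wells of unknown condition, and the part of the wells in it was not tested. The log2 differences were 4.18 for ATP13A5 (0.782 against 0.0430 per 10000, and 3.21 without the same 4 cells), 3.76 for TMEM72, 3.35 for SPTLC3, 3.98 for SLC17A8 and 3.80 for DYNLT5. Their median was 3.80, against 0.00 over all genes. In nuclei, where none reached 0.5%, 408 had TTR at 0.05% or more, and 13.4% of 24462 genes were at least 2-fold higher and 16.3% lower. The log2 differences of the 5 genes lay between 3.75 (ATP13A5) and 4.49 (DYNLT5), with a median of 4.32 against -0.09 over all genes. The contrast belongs to the choice of the 5 genes, so nothing is read from these counts. The cells with TTR at 0.5% or more had a median mitochondrial share of 8.94%, and 165 of them exceeded 10%. In the whole library 512 cells exceeded 10%, and they held 1799 of the 7052 transcripts of the 5 genes. In all, 25.4% of the transcripts of the 5 genes lay in the cells with TTR at 0.5% or more, and 16.5% when cells over 10% mitochondrial transcripts were left out. In nuclei, 46.0% lay at TTR of 0.05% or more. In those nuclei the median mitochondrial share was 0.0751%, against 0.0865% in the others.

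Relatives of the 5 genes were read against the same shares of all genes, 14.1% higher and 12.1% lower in cells and 13.4% and 16.3% in nuclei, and the counts below are descriptions of small lists. Of the 4 other P5-type ATPases, 1 was over 2-fold higher in TTR-rich barcodes of either library, ATP13A4, at log2 1.93 in cells and 2.01 in nuclei. Of 16 genes of serine palmitoyltransferase and sphingolipid synthesis, 2 were higher and 3 lower in cells. The higher ones were SPTSSA, a small activating subunit of the enzyme, at 1.90 and ORMDL3, a regulator that restrains it, at 1.33. CERS6, a ceramide synthase, was lower at -1.37, and SPTSSB and DEGS2 rested on 2 and 4 transcripts in TTR-rich cells. SPTLC1 and SPTLC2, other subunits of the enzyme, differed by -0.73 and 0.85 in cells and by -0.43 and 0.99 in nuclei, under 2-fold. In nuclei SPTSSA was the 1 of the 16 that was higher, at 1.39, and CERS6 (-1.05) and ORMDL2 (-1.24, with 5 transcripts in TTR-rich nuclei) were lower. Of the other vesicular glutamate transporters, SLC17A6 was at -2.57 in cells and -2.08 in nuclei, and SLC17A7 at -2.51 and -1.92. Both are also in the lists of neuron markers used here, and SLC17A8 was selected on its counts, so no contrast with it is read. Of the 8 other SLC17 genes tested in cells, SLC17A1 and SLC17A2 were higher, each with 5 transcripts in TTR-rich cells, and in nuclei 0 of 4 were higher. Of 9 other dynein light chains in cells, DYNLT4 (3.51, with 10 transcripts in TTR-rich cells) and DYNLRB2 (3.43), a light chain of cilia, were higher. DYNLT2 was lower, with 1 transcript at a level of 0.00267 per 10000 (6.76e-05 to 0.0149) against 0.0417. In nuclei DYNLRB2 was the 1 of 8 that was higher, at 2.86. TMEM72-AS1, whose span covers TMEM72, was at 0.360 against 0.601 per 10000 in cells and 0.476 against 0.663 in nuclei, lower where TMEM72 was higher. Whether strand was used in counting is not given in the sources used here.

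The other markers of the choroid plexus came with the 5 genes. At 1000 transcripts a barcode, at least 2 of the 8 markers other than TTR were found in 5.998% of 19506 cells with none of the 5 genes, 33.7% of 627 with 1, 55.3% of 38 with 2 and 85.7% of 7 with 3 or more. The shares with 1 barcode per set were 6.97% of 13922, 34.1% of 513, 58.6% of 29 and 83.3% of 6. In nuclei the shares were 3.22% of 13900, 53.6% of 295, 60.7% of 28 and 80.0% of 5. At least 1 of the 5 ciliated cell markers was found in 9.75%, 33.0%, 60.5% and 100% of these cells and in 5.79% and 38.0% of the nuclei with none and 1, in 14 of 28 with 2 and in 4 of 5 with 3 or more. Unthinned, the summed level of the 9 choroid plexus markers was 8.92 per 10000 in cells with none and 86.2 in cells with 3 or more of the genes, and 5.15 and 260 in nuclei. Excitatory neuron markers summed to 9.41 and 6.94 in these cells and 7.76 and 2.94 in these nuclei, and dividing cell markers to 8.34 and 5.57, and 6.49 and 2.20. Ciliated cell markers summed to 0.921 and 6.50, and 0.555 and 15.5. Several sums for other cells were also higher with 3 or more genes, and their part in the results was not tested. Cortical hem markers were at 1.82 and 3.51 in cells and 2.21 and 6.79 in nuclei, with 4 of 7 markers higher in each library. Mesenchyme and mural markers were at 0.659 and 1.17, and 0.737 and 1.63, with 8 of 9 higher in cells, 5 of 9 in nuclei, and COL3A1, LUM and DCN at 0 in nuclei. Oligodendrocyte precursor markers were at 0.0636 and 0.569, and 0.0408 and 1.24, with 3 of 3 higher in cells, 1 of 3 in nuclei, and OLIG1 and OLIG2 at 0 in nuclei. Inhibitory neuron markers were at 0.167 and 0.197, and 0.286 and 0.396, with 2 of 6 higher in each library, DLX5 at 0 in both and DLX2 at 0 in nuclei. Endothelial markers were at 0.117 and 0.342, and 0.0242 and 0.0405, with 3 of 4 higher in each library and PECAM1 at 0 in nuclei. Microglial markers were at 0.0329 and 0.0679, and 0.0158 and 0.0468, with 1 of 3 higher in each library, C1QA at 0 in both and AIF1 at 0 in nuclei. Markers of non-neural epithelium were at 0.161 and 0.294, and 0.0692 and 0.106, with 4 of 4 higher in cells and 2 of 4 in nuclei. Lower sums with 3 or more genes were those of radial glia (18.4 and 14.3 in cells, 18.3 and 9.61 in nuclei), outer radial glia (7.58 and 4.61, 6.68 and 2.32) and intermediate progenitors (1.36 and 0.756, 0.448 and 0.115). Cajal-Retzius markers were at 0.697 and 0.551, and 1.31 and 0.521, subcortical neuron markers at 2.01 and 1.81, and 2.85 and 2.47, and neural crest and glia markers at 0.123 and 0.102, and 0.125 and 0.0343. Glycolytic genes were at 5.74 and 4.60, and 4.17 and 4.13. Astrocyte markers were at 0.0713 and 0.0667 in cells and 0.0639 and 0.0717 in nuclei.

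The genes most like the 5 over kept barcodes included choroid plexus markers (CLIC6, HTR2C) and a gene of a ciliary dynein (DNAH7), by Pearson's r of log(1 + transcripts per 10000) with every gene detected in at least 100 barcodes. Barcodes share depth and library, and r was low in cells, so the values only order the genes. For DYNLT5 the first genes were DNAH7 (0.30), VWA3A (0.29), ARMC3 (0.29), ABCA4 (0.28) and CFAP46 (0.27) in cells, and ARMC3 (0.60), VWA3A (0.56), CFAP47 (0.56), ADGB (0.54) and CFAP46 (0.52) in nuclei. For TMEM72 they were SULF1, ABCA4, CLIC6, RBM47 and HTR2C in cells (0.29 to 0.26), and CLIC6, ABCA4, SULF1, HTR2C and ENSG00000258312 in nuclei (0.51 to 0.45). SPTLC3 began with ABCA4 in cells (0.22) and nuclei (0.46), and SLC17A8 with SULF1 in cells (0.29) and ABCA4 in nuclei (0.39). ATP13A5 had the weakest likeness, at most 0.16 in cells (MIR646HG) and 0.23 in nuclei (ARMC3). The only member among another's first 5 genes was SPTLC3, at rank 4 for ATP13A5 in nuclei. Among 24050 genes in cells, the other members lay at ranks 66 to 205 for ATP13A5 and 15 to 339 for TMEM72. They lay at 31 to 257 for SPTLC3, 24 to 350 for SLC17A8 and 64 to 611 for DYNLT5. In this order, ranks in nuclei (17000 genes) were 4 to 75, 52 to 348, 39 to 193, 13 to 280 and 102 to 418. In both libraries, 36 genes were among the first 50 of at least 3 of the 5. The 11 that were there for all 5 were ABCA4, ARMC3, CFAP70, CLIC6, DNAH7, HTR2C, LRRC9, MIR646HG, SLC13A4, SNTB1 and VWA5B1. With 1 barcode per set, 34 genes were shared, without CFAP46 and FYB2, and MIR646HG and SNTB1 left the list for all 5 while IGFBP7 and PCAT1 entered it.

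First-round wells differed widely in their share of barcodes with the genes. Among 48 wells of cells, the share of a well's barcodes with at least 2 of the 5 genes ran from 0 to 13.2% with a median of 1.80%, and 7 wells had none. Well D6 was highest, with 34 of 258 barcodes, followed by D4 with 12.7% and D12 with 10.2%. Well A8 supplied the most of these 637 barcodes, 17.0%, with 12.9% of all kept cells and 11.3% of the 2280 with any of the genes. With 1 barcode per set the well with the most was D10, with 58 (10.1%), and A8 held 54. Counting all barcodes, D10 held 5.85% of the kept cells and 11.01% of the cells with any of the genes. In all, 16 of the 48 wells held a larger share of the barcodes with at least 2 genes than of kept cells. The number of wells without a transcript ran from 1 for SLC17A8 to 7 for DYNLT5. Wells held 39 (A10) to 2606 (A8) kept cells, and these shares were not thinned. The part of well size and depth in them was not tested.

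Among 12 wells of nuclei, the share with at least 2 genes ran from 1.24 to 5.58% with a median of 2.16%. Well A10 was highest, with 126 of 2259 barcodes. It held 15.9% of the kept nuclei, 25.3% of those with any of the genes and 32.8% of those with at least 2. By transcripts, A10 held 33.1 to 40.7% of each gene and 21.6% of all transcripts. Its level was the highest of the wells for ATP13A5 (0.0501 per 10000), TMEM72 (0.167) and DYNLT5 (0.190). Well A2 was higher for SPTLC3 (0.350 against 0.268, in 13 nuclei of A2) and for SLC17A8 (0.293 against 0.168, in 14 nuclei of A2). Well A1 was also above A10 for SLC17A8 (0.208, in 10 nuclei of A1). All 5 genes were found in every one of the 12 wells. The conditions of the wells being unknown, these values describe wells and not treatments.

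**Figure D5:**
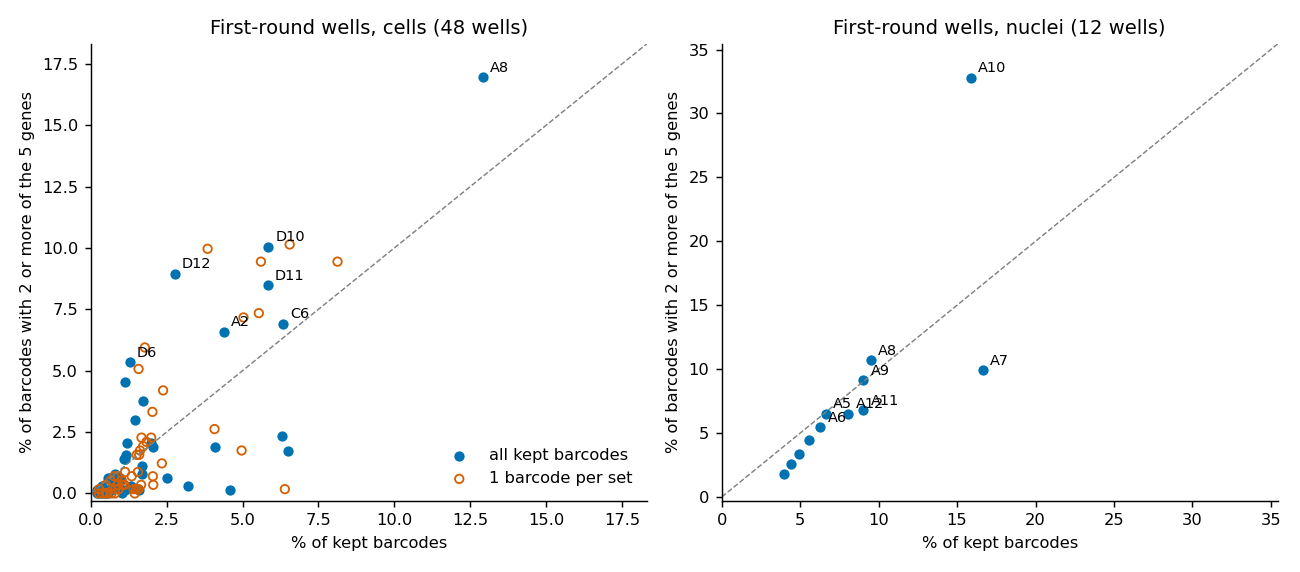
Share of the barcodes with 2 or more of the 5 genes (y axis, %) against the share of kept barcodes (x axis, %) for each first-round well of cells (left, all barcodes filled and 1 barcode per set open) and nuclei (right), with the dashed line of equal shares. Well A8 of the cells lies at 17.0% with all barcodes, and well A10 of the nuclei lies at 32.8% against 15.9% of kept nuclei.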

How the data were processed

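Single cells and single nuclei of H9 cerebral organoids were profiled by split-seq, 1 library each. For cells 8 and for nuclei 2 sub-libraries were split from the reads by the authors, with 1 mismatch allowed, and run through the Parse Biosciences pipeline on GRCh38. The deposited files hold raw transcript counts for each gene in each barcode, neither normalized nor filtered. The deposited metadata name a single sample in each library, so no test between groups was possible.

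The 2000 variable genes for clustering were chosen with scanpy 1.11.5, without the 5 studied genes, TMEM72-AS1 and ATP13A5-AS1. Kept barcodes were clustered on them with scikit-learn 1.9.0 (30 components, 15 neighbours) and igraph 0.11.9 (Leiden resolution 1, links weighted by shared neighbours). Levels are summed transcripts per 10000. Shares carry 95% exact (Clopper-Pearson) intervals and summed counts exact Poisson intervals. Thinning drew 1000 or 5000 transcripts per barcode without replacement. A gene was called at 2-fold among genes with at least 20 transcripts. The count of doublets called with Scrublet was 0 in both libraries, which would also result if it made no calls. It is not read as an absence of doublets, and the calls were not used. As an alternative, the barcodes with the highest scores (5% of cells, 3% of nuclei) were left out. The named genes were the 5 genes, TTR, marker and family lists, the 5 leading genes of a cluster (in at least 25% of its barcodes) and the likeness rule. These members and lists were chosen with earlier results of these data known. The rule for barcode sets and the TTR limit of 0.05% for nuclei were chosen after seeing the data. 1 of the marker lists is not reported here. The scripts were tested on simulated data.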

Additional observations from a re-analysis of the deposited data

Results flagged for a closer look

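All 5 genes were also counted in data outside the kept barcodes. Barcodes of 10 to 100 transcripts, below the limit for a kept barcode, were taken here as free RNA, with no control samples at hand. In the cells library they held 239 transcripts of ATP13A5, 251 of TMEM72, 431 of SPTLC3, 472 of SLC17A8 and 263 of DYNLT5, among 34343756 transcripts. These are 0.0696, 0.0731, 0.125, 0.137 and 0.0766 per 10000, against 0.0606, 0.0743, 0.110, 0.140 and 0.0631 in kept cells. In the nuclei library they held 38, 56, 129, 63 and 51 in the same order, or 0.0580, 0.0855, 0.197, 0.0962 and 0.0779 per 10000, against 0.0316, 0.108, 0.157, 0.105 and 0.101 in kept nuclei. Levels pooled over the clusters without a raised choroid plexus marker were below those of these small barcodes for all 5 genes in both libraries. Read by single cluster, SPTLC3 reached 0.164 per 10000 in cells, above its 0.125 in the small barcodes.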

How the results depend on the processing

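No paired analysis was possible because each library was 1 sample and no result came from a test. Of 176 values computed under alternatives, 56 moved by more than their counting interval or, for counts, by over 1.5 times and, for log2 folds, by 0.5 or more. No log2 fold changed direction, and the shares, counts and levels have no direction to change. The cause was not tested except where the setting itself changes the depth, the genes or the barcodes counted.

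The share of cells with any of the 5 genes was 8.72% with over 700 transcripts, 16.2% with over 2000, 21.99% with over 5000, 10.2% with at most 10% mitochondrial transcripts, 3.33% thinned to 1000, 3.12% when 2 transcripts were asked for, 14.1% with 1 barcode per set and 12.1% with 1 per well combination. The share with at least 2 among these was 25.7% (over 700), 31.5% (over 2000), 35.01% (over 5000), 24.7% (10% mitochondrial), 6.70% (thinned) and 34.0% (2 transcripts). The share of their transcripts in TTR-rich cells was 28.3% (over 5000), 16.5% (10% mitochondrial), 16.6% (thinned), and 41.5%, 7.39% and 0.652% with TTR limits of 0.2%, 1% and 2%. The highest well share was 12.7% (10% mitochondrial) and 13.0% (thinned). Genes 2-fold higher numbered 2976 when 100 transcripts were asked for, and the highest summed level in a cluster was 4.35 at resolution 0.5, in 113 barcodes that all came from cluster 23, while the 464 barcodes of cluster 15 lay in a cluster of 1497 at 2.54.

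In nuclei, the share with any gene was 7.29% (over 2000), 11.9% (over 5000), 2.31% (thinned), 2.99% (2 transcripts) and 5.52% without well A10. The share with at least 2 among these was 55.0%, 10.1% and 39.0% (over 5000, thinned, without A10). The share of transcripts in TTR-rich nuclei was 0 at limits of 0.5%, 1% and 2%, which no nucleus reached, 0.239% at 0.5% after thinning (1 transcript) and 3.70% at 0.2%. At 0.05%, it was 48.7% (over 5000), 32.1% (thinned), 48.1% without the highest doublet scores and 39.2% without A10, and 73.1% and 18.5% with limits of 0.02% and 0.1%. The highest well share was 31.3% (over 5000) and 31.9% (2 transcripts). Genes 2-fold higher numbered 1879 with 100 transcripts asked for and 5861 with no filter. All 65 folds of the 5 genes under alternatives were over 2-fold, from log2 2.90 to 5.37. The settings that change only which genes are counted do not enter a gene's own fold, so they could not move it. At a TTR limit of 2% the folds in cells rested on 6 to 12 transcripts in TTR-rich cells.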
